A study of Mus musculus with 96 samples.

Results

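Homotypic clusters of GATA6 motifs were defined here as GATA6 binding regions that hold at least 7 matches to the GATA6 motif and no high-scoring match to the SOX17 or the composite OCT4:SOX2 (OCT:SOX) motif. Of the 42403 regions of the deposited table, 1096 met this rule. The rule used motif counts and motif scores, and no measured binding. GATA6 binding was profiled by chromatin immunoprecipitation and sequencing (ChIP-seq) in KH2 mouse embryonic stem (ES) cells that carry a doxycycline (Dox)-inducible Gata6 transgene with an HA tag, in 2 clones of a C57BL/6 x 129/Sv background. Cells before Dox carry the transgene too, and all induced groups received 1 µg/mL Dox. Chromatin was taken without Dox, at 8 h and 16 h of Dox and at day 1 (24 h), day 2 (48 h) and day 4 (96 h), and was compared with that of untreated extra-embryonic endoderm (XEN) cells, an embryo-derived line, here X10 of CD1 mice, that resembles the primitive endoderm (PrE). SOX17, OCT4, SOX2 and input chromatin were sequenced in the same series, ESRRB in all of it but XEN cells, and GATA6 and SOX17 also at day 2 after control or Oct4 siRNA, in cells of the clone G6.3. Cells were grown on fibroblast feeders, most of which were removed before fixation.

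GATA factors are zinc finger proteins that recognise a short core, GATA, preferably as AGATAA. Among them, GATA6 directs cells of the inner cell mass to the PrE, can engage sites wrapped in nucleosomes, and acts upstream of GATA4 and SOX17. A homotypic cluster, in which matches to the motif of a single factor recur within a short stretch, is a known feature of enhancers, where neighbouring sites can be occupied by several molecules of the same factor.

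Because a motif scan counts letters that resemble the motif, the sequences were read first, from the RefSeq assembly GRCm38, the build that mm10 denotes. A core was counted wherever GATA, or TATC for the other strand, occurred, overlaps included. The regions with the most matches were of 3 kinds. In most of the clusters the cores were dispersed. In 47 regions, called arrays here, at least 5 cores followed each other on a strand at steps of at most 8 bases. In 58 regions, called core-poor, fewer than 50% as many cores as motif matches were present. The remaining 991 regions were called dispersed. These kinds were set after the sequences had been read, and no test was applied to them. The windows of 120 bases below, all on the plus strand, are those that hold the most cores of a dispersed or array region, or the most repetitive stretch of a core-poor one (for Cylc2, the most cores), with the cores in capitals. They are shown because motif matches stood for sequences of different kinds.
Tbx3, chr5:119589653-119589772: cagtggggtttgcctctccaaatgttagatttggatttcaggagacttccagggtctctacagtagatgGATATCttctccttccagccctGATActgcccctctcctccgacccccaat
Macrod2, chr2:140748815-140748934: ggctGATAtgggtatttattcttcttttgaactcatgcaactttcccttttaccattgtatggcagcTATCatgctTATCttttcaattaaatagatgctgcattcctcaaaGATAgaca
Gpc6, chr14:116947472-116947591: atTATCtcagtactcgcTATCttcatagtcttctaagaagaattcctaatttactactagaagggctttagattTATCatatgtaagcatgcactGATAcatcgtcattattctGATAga
Zfpm1, chr8:122282845-122282964: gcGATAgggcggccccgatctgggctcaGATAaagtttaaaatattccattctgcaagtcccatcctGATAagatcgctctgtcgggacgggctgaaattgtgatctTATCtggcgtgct
The first lies upstream of Tbx3, a T-box factor of pluripotent cells, in a region with 28 motif matches and 29 cores (6 of them AGATAA). The second lies in an intron of Macrod2, in a region with 12 matches and 14 cores, and the third in an intron of Gpc6, in a region with 10 matches and 24 cores. The last, in an intron of Zfpm1, the gene of the GATA cofactor FOG-1, comes from a region with 12 matches and 20 cores. In these windows, chosen for the most cores, cores stand on both strands, mostly with other letters between them. Dispersed regions can hold repeats as well. In the most repetitive 120 bases of the Tbx3 region, which hold 0 cores, 87.1% of the bases were equal to the base 4 positions on, and for the Zfpm1 region the share was 74.6% at a step of 6, with 1 core. The array is different.
Array near Daam1, chr12:71616799-71616918: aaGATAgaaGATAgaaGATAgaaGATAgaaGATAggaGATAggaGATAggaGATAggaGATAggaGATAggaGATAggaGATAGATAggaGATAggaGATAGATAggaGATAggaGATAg
This region, 214.4 kb upstream of Daam1, held 35 motif matches and 77 cores, of which 28 followed each other in a single array. None of the cores reads AGATAA, which was an exception among arrays. AGATAA or TTATCT occurred in 45 of the 47 arrays (95.7%) and in 96.7% of dispersed clusters. Of the core-poor windows shown next, the first is largely a repeat of a 5-letter unit without the core, and the second holds 4 cores. Where in such a region the matches lie is not given in the table, beyond the best match of each.
Csrp2, chr10:110911578-110911697: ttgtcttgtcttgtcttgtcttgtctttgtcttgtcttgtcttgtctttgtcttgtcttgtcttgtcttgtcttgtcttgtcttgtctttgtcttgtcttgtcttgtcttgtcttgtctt
Cylc2, chr4:51229813-51229932: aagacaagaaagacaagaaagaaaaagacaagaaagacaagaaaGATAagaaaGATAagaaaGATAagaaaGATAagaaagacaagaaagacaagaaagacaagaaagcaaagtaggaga
The first of these, 8.30 kb upstream of Csrp2, had the highest count of the table, with 50 matches but only 2 cores. The other lies in a coding exon of Cylc2, where units with the letters aagac and units with the core follow each other, and held 14 matches and 5 cores. In 254 of the 1096 clusters (23.2%) there were fewer cores than motif matches, against 9.62% of all regions. Because the rule asks for many matches, part of this difference is built into the choice. Of the regions with at least 7 matches and a high SOX17 or OCT:SOX match, 126 of 754 (16.7%) had fewer cores than matches. One cluster held no core. A tandem run of at least 3 copies of GATA was present in 33 clusters (3.01%) and in 233 of all regions (0.549%).

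The clusters held 7 matches in 468 cases, 8 in 270, 9 in 130, 10 to 12 in 160, 13 to 20 in 58 and more than 20 in 10. Their median width was 1183 bp, with 234 bp for the narrowest and 4404 bp for the widest, while the median of all regions was 524 bp. As many as 624 clusters were in the top decile of width. Counted per kb the clusters differed less, with a median of 6.69 matches against 3.82 in all regions, and 8.36 cores per kb against 7.38. The best match scored 12.3 in the median cluster and 10.2 in all regions, but the mean score over a region's matches was alike (8.64 and 8.69). A high-scoring best match was present in 55.9% of clusters and 26.8% of all regions. The best match is the highest of a region's matches, so a rule that asks for at least 7 itself favours high best scores. AGATAA or TTATCT occurred in 94.2% of clusters, and in 75.3% within the 201 bases centred on the GATA6 summit. In a window of the same length, 54.3% of all regions had it. For arrays the share in this window was 91.5%, for dispersed clusters 76.4% and for core-poor ones 43.1%. The nearest core was a median of 15.5 bases from the summit in clusters and 18.5 bases in all regions. In dispersed clusters the density of cores was 6.69 per kb at 200 to 240 bases to the right of the summit and 20.5 per kb in the 40 bases next to it, and in arrays it reached 67.6 per kb. The best match was often elsewhere, at a median of 97.0 bases from the summit, against 51.0 bases in all regions. Read by position, the clusters thus had a summit next to a core, and their remaining cores spread over the region.

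**Figure D1:**
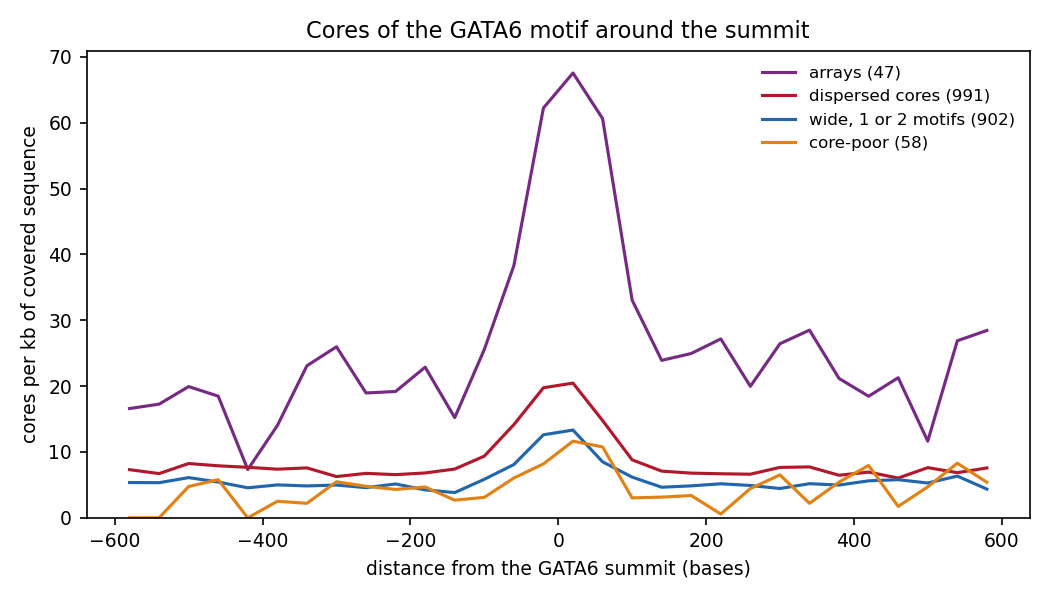
Cores of the GATA6 motif (GATA or TATC) per kb of covered sequence, in bins of 40 bases, against the distance in bases from the GATA6 summit, for dispersed, array and core-poor clusters and for wide regions with 1 or 2 motif matches. All lines are highest beside the summit, where arrays reached 67.6 and dispersed clusters 20.5 cores per kb.

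Most clusters were far from promoters. The summit was within 1 kb of the start of a protein-coding gene in 3.83% of clusters, in an intron in 45.4%, in an exon in 1.73% and between genes in 49.0%. Of all regions, 7.38% were within 1 kb of a start, 44.7% in introns and 46.1% between genes. The median distance to the nearest start was 24.8 kb, and 22.1 kb for all regions. Arrays were farther, with a median of 59.4 kb (interval 37.4 to 110 kb). Clusters near the same gene were uncommon. The 890 clusters within 100 kb of a start had 827 different nearest genes, of which 5 had as many as 3 clusters each, namely Etl4, Flrt3, Gja1, Klf5 and Klf8.

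Each signal below is in RPM (reads-per-million), and the table gives 1 value for each condition, with its replicates merged by the authors. The spread between replicates is therefore unknown, and no difference between conditions has a replicate check. Intervals are 95% intervals of a median or share over regions (exact binomial) and cover only the counting of regions, which are not replicates. The steps of the low values give the depths of the merged libraries, from 8.54 to 69.4 M reads for GATA6 with Dox and in XEN cells and 6.12 M reads for the single library before Dox, where 1 read is worth 0.163 RPM. A difference of 2-fold or more was counted on log2(RPM + pseudocount), with a pseudocount set at percentile 5 of all values of an assay that are above 0 (for GATA6 this was 0.168 RPM), which understates changes of low values.

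GATA6 was present at most clusters from 8 h on, with courses that differed between them. Before Dox the median signal was 0.817 RPM, with 0.163 in the lowest and 4.74 in the highest cluster. That lowest value is the worth of 1 read and also the lowest of all regions, none of which had 0. It may therefore stand for no reads, and whether the values include an added read is not known. At 8 h the median signal of the clusters was 5.34 RPM (interval 4.93 to 5.81), from 0.174 to 57.5 over the clusters. The later medians were 5.69 (16 h), 4.66 (day 1), 3.89 (day 2) and 4.06 RPM (day 4), and XEN cells had 4.28. The median was thus highest at 8 h and 16 h and remained well above that before Dox. The quartiles at day 4 were 1.68 and 9.46 RPM, so the clusters overlapped widely between time points. From before Dox to 8 h, 917 of the 1096 clusters (83.7%) were higher by 2-fold or more, against 61.1% of all regions. All regions had a lower median before Dox, 0.490 RPM, nearer the pseudocount, so their changes are understated more. The wide regions with 1 or 2 matches described below had medians of 0.980 RPM before Dox and 5.36 at 8 h. From 8 h to day 4, 451 (41.1%) were lower by 2-fold or more and 285 (26.0%) higher, against 35.1% and 31.4% of all regions. From day 4 to XEN cells, 133 (12.1%) were higher and 127 (11.6%) lower, where all regions had 14.8% and 12.3%. These last shares were near the background. The median of all regions was 1.49 RPM at 8 h and 1.29 at day 4, so the median cluster had 3.58 times the signal at 8 h and 3.14 times at day 4.

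Much of this ratio went with width. Per kb, the clusters had a median of 5.01 RPM at 8 h and 3.58 at day 4, against 3.27 and 2.69 for all regions, ratios of 1.54 and 1.33. Regions of at least 887 bp, the lower quartile of the clusters' width, that hold only 1 or 2 matches and no high SOX17 or OCT:SOX match numbered 902. They had 4.98 RPM per kb at 8 h, 3.67 at day 4 and 2.78 in XEN cells, where the clusters had 3.78. The intervals of the 8 h values overlapped, while those in XEN cells did not, at 2.47 to 3.28 for the wide regions and 3.44 to 4.28 for the clusters. Regions with as many GATA6 matches and a high SOX17 or OCT:SOX match, 754 in number, had 5.54 RPM per kb at 8 h and 4.24 at day 4. The 1388 regions with a single, high-scoring GATA6 match and no high match of the others had 3.55 and 2.01. Just inside the threshold, the 468 clusters with 7 matches had 4.75 RPM per kb at 8 h, and just outside it the 897 regions with 6 matches had 4.02.

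**Figure D2:**
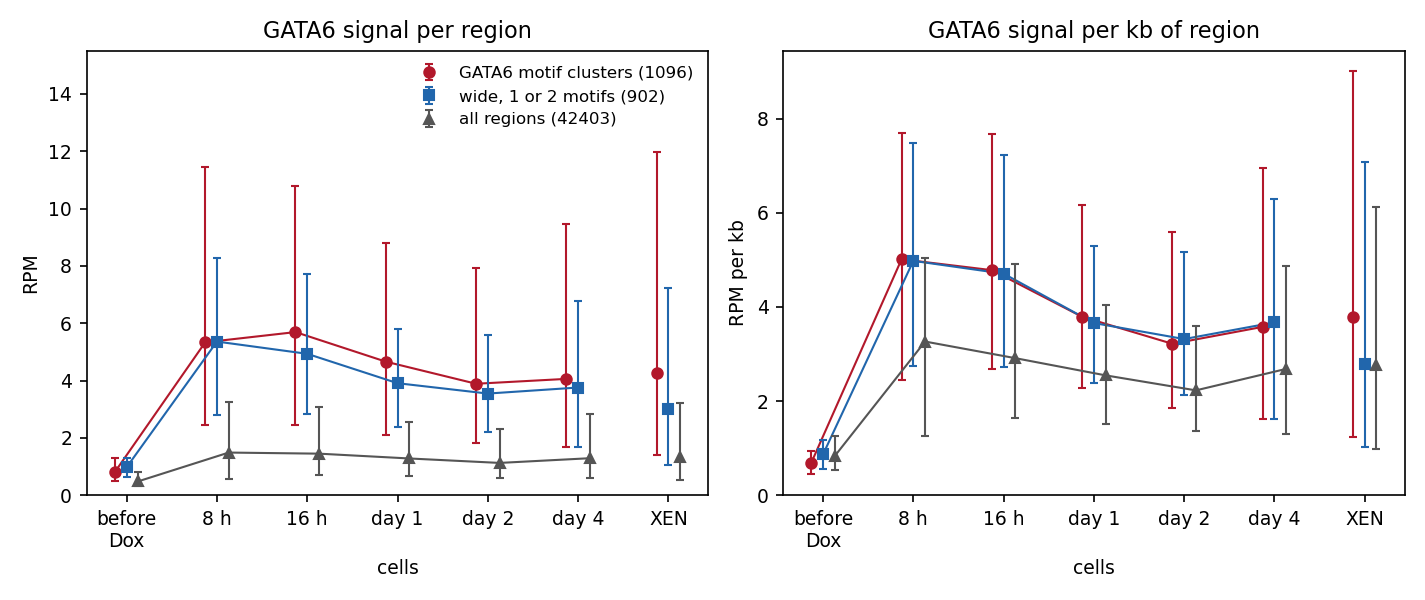
GATA6 signal in RPM (left) and RPM per kb of region (right) before Dox, at 8 h to day 4 of Dox and in XEN cells. Points are medians over regions and bars the quartiles, for 1096 clusters, 902 wide regions with 1 or 2 motif matches and all 42403 regions. The clusters lie above all regions on both scales, and per kb they have nearly the same medians as the wide regions until day 4 (3.58 and 3.67 RPM per kb), but not in XEN cells (3.78 and 2.78).

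When regions of similar width were compared, the number of motif matches went with the state of the chromatin before Dox, while the GATA6 signal at 8 h differed less evenly. Among regions of 750 to 999 bp without a high SOX17 or OCT:SOX match, the share that the authors classed as closed in ES cells was 27.7% with no GATA6 match, 39.9% with 1 or 2 and 56.8% with 3 or 4. It was 73.4% with 5 or 6, 85.3% (interval 79.2 to 90.2) in the 177 clusters with 7 or 8 matches and 93.1% (77.2 to 99.2) in the 29 clusters with 9 to 11. Over the same steps the median GATA6 signal at 8 h was 3.21, 4.39, 4.37, 4.12, 4.11 and 3.95 RPM per kb. With 1 or 2 against 7 or 8 matches it was 2.28 and 2.94 RPM per kb under 500 bp, 3.69 and 3.46 at 500 to 749 bp, 4.93 and 3.85 at 1000 to 1249 bp, 5.63 and 5.73 at 1250 to 1499 bp and 5.80 and 7.01 at 1500 to 1999 bp. It was thus higher with more matches at some widths and lower at others. With 9 to 11 matches it was higher still at 500 to 749 bp (4.78, 25 regions) and at 1250 to 1499 bp (7.18, 37 regions). The increase in closed regions was found at other widths too. With 1 or 2 against 7 or 8 matches, the closed share was 50.8% and 91.9% at 500 to 749 bp, 28.0% and 75.8% at 1000 to 1249 bp and 22.0% and 60.0% at 1250 to 1499 bp. At 1500 to 1999 bp it was 28.1% and 53.7%, with overlapping intervals (13.7 to 46.7 and 44.9 to 62.3). It did not hold throughout, since at 500 to 749 bp the share was 72.0% with 9 to 11 matches (25 regions), and above 2000 bp 29.7% with 7 or 8 (37 regions).

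Over all widths, 772 clusters (70.4%) were closed in ES cells, 302 (27.6%) moderately accessible and 22 (2.01%) accessible. Of all regions 61.3% were closed, and of the wide regions with 1 or 2 matches 30.4%. At closed clusters the median GATA6 signal was 4.01 RPM per kb at 8 h and 3.65 at day 4, and XEN cells had 4.29. At moderately accessible clusters it went from 6.66 to 3.55 and 3.29 over the same points, and at accessible ones from 7.91 to 2.94 and 2.38. Per kb, the order of the 3 class medians at 8 h was therefore the opposite of that in XEN cells, although quartiles of neighbouring classes overlapped. The 22 accessible clusters had a wide interval in XEN cells, 0.845 to 6.99 RPM per kb, which spans the medians of both other classes. In RPM, without division by width, the order was not reversed. Closed clusters then had the lowest and accessible ones the highest median both at 8 h and in XEN cells. The authors' class of histone marks in ES cells called 37.7% of clusters naive, the class that stands apart from enhancer, promoter and heterochromatin states, against 18% of all regions. Promoter, constitutive and facultative heterochromatin states took 3.56%, 4.38% and 15.8% of clusters, against 6.88%, 10.2% and 22.3% of all regions. Input chromatin, the reads recovered without an antibody, also went down with the number of matches at fixed width, from 1.02 RPM per kb with no match to 0.685 with 7 or 8 at 750 to 999 bp before Dox. Its part in the result was not tested.

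**Figure D3:**
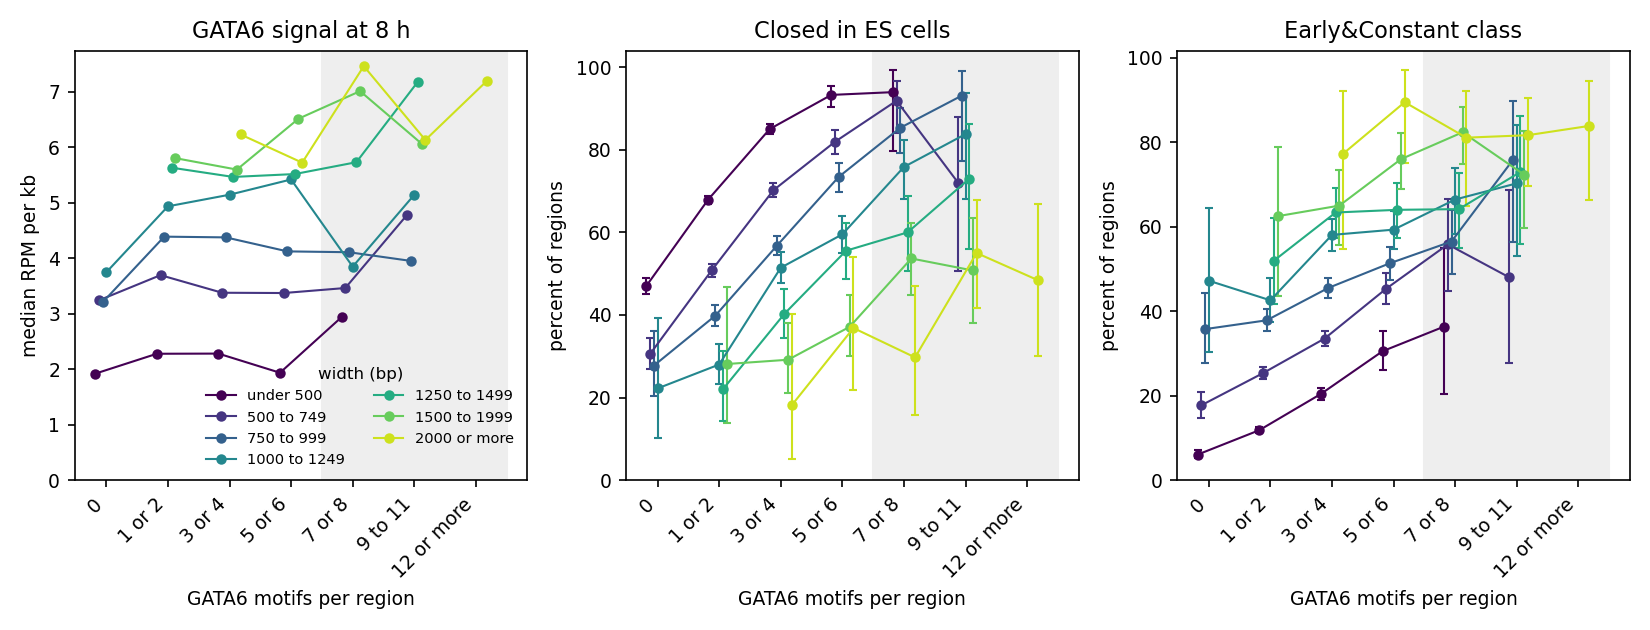
Regions without a high SOX17 or OCT:SOX match by number of GATA6 matches (horizontal axis) and width (colour), with at least 20 regions per point and the clusters shaded. The median GATA6 signal at 8 h in RPM per kb (left) differs between widths and has no single direction with the number of matches, while the percent closed in ES cells (middle) and in the Early&Constant class (right) is higher with more matches in most widths. Bars are exact 95% intervals, and at 750 to 999 bp the closed share goes from 27.7% to 93.1%.

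The authors sorted GATA6 regions by their course into Early&Constant, Late and Transient classes, from GATA6 binding itself. Of the clusters, 730 (66.6%, interval 63.7 to 69.4) were Early&Constant, 140 (12.8%) Late and 226 (20.6%) Transient, while all regions had 28.0%, 33.6% and 38.4%. At matched widths the Early&Constant share was also higher with more matches. It was 25.4% with 1 or 2 matches and 55.8% with 7 or 8 at 500 to 749 bp, 37.9% and 56.5% at 750 to 999 bp and 42.6% and 66.4% at 1000 to 1249 bp. At 1250 to 1499 bp, with 52.0% and 64.2%, the intervals overlapped. If all other regions were weighted to the clusters' deciles of width, 53.2% were Early&Constant and 48.6% closed, both below the clusters. The weighted median signal at 8 h was 3.50 times that of all regions, against 3.58 times for the clusters. Weighted median log2 changes were also near those of the clusters. They were -0.49 in both for GATA6 from 8 h to day 4. From before Dox, SOX17 to day 4 had 1.04 against 1.11 for the clusters, and OCT4 to day 2 had 0.41 against 0.45. The top decile of width, which held 624 clusters, was not divided further, so widths within it were not matched. The Early&Constant share hardly differed between closed clusters (67.4%) and moderately accessible ones (64.9%). Late clusters were closed in 127 of 140 cases, and Late regions as a whole in 11598 of 14243. None of the 22 accessible clusters was Late (interval up to 15.4%), against 17.1% of all accessible regions. Among wide regions with 1 or 2 matches, 54.7% of the closed and 42.5% of the moderately accessible were Early&Constant.

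The strongest clusters of each class show the size of these courses. The 8 h, day 4 and XEN medians of Early&Constant clusters were 6.83, 6.37 and 6.60 RPM. The highest value at day 4, 46.9 RPM, was at chr8:72146689-72148414 in an intron of Tpm4, which encodes a tropomyosin, where 8 h had 18.5 RPM and XEN cells 59.4. It was followed by the cluster of the Macrod2 intron whose window is shown above, with 9.83, 45.1 and 68.3 RPM, and by chr7:99352780-99355881, 0.787 kb from the start of Serpinh1, a collagen chaperone, with 21.4, 44.5 and 65.4 RPM. All 3 were higher in XEN cells than at day 4, and higher at day 4 than at 8 h. At Late clusters the medians were 0.786, 4.42 and 6.70 RPM. The highest at day 4, chr12:102421989-102425473 in an intron of Lgmn, a lysosomal protease, went from 2.64 RPM at 8 h through 7.88 and 13.4 on days 1 and 2 to 32.8 at day 4, with 30.1 in XEN cells. The Gpc6 cluster shown above had 1.05 RPM at 8 h, below its 2.61 before Dox, but 22.6 at day 4, and 31.6 in XEN cells. The third, chr16:45952048-45953979 at the start of Phldb2, had 0.810, 18.8 and 29.2 RPM for 8 h, day 4 and XEN cells. Transient clusters had medians of 5.65, 1.15 and 0.802 RPM. The Zfpm1 cluster was the highest at 8 h, with 47.1 RPM, of which day 1 kept 13.6, day 4 10.9 and XEN cells 13.1. At chr2:180236605-180239133, 11.9 kb upstream of Lama5, a laminin chain, the values were 26.9, 3.38 and 1.75 RPM, and at chr12:3738276-3740013 in an intron of Dtnb 26.2, 1.60 and 1.06.

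Dispersed clusters and arrays differed in their course. Dispersed clusters had a median of 5.10 RPM per kb at 8 h (interval 4.72 to 5.38), and 16 h, day 1, day 4 and XEN cells had 5.01, 4.02, 3.83 (3.52 to 4.17) and 4.15. Arrays started as high, with 5.40 at 8 h (4.41 to 6.06), but the next values in the same order were 3.24, 2.12, 1.31 (1.05 to 1.64) and 1.26. Core-poor clusters had 4.29 at 8 h, then 3.01, 2.25, 2.01 and 1.57, with an interval at day 4 of 1.58 to 3.87 that overlaps those of both other kinds. From 8 h to day 4, 36 of the 47 arrays (76.6%) were lower by 2-fold or more, as were 386 of the 991 dispersed (38.9%) and 29 of the 58 core-poor clusters (50.0%), where all regions had 35.1%. Arrays outside the clusters, 183 regions that met the same definition but not the rule on motif number and on other motifs, had 4.21 RPM per kb at 8 h but 2.83 at 16 h and only 1.51 at day 4. That decline was thus present in regions that the choice of the clusters had not used.

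Array clusters were nevertheless mostly Early&Constant, 30 of 47, with 17 Transient and none Late. They were closed in 93.6% of cases, against 69.7% of dispersed clusters, and 80.9% were of the naive class. The authors called SOX17 binding in 25.5% of arrays, 68.2% of dispersed and 48.3% of core-poor clusters. Input was lower at arrays, with 0.519 RPM per kb at 8 h and 0.489 at day 4, against 0.701 and 0.783 at dispersed clusters, and so was the GATA6 signal before Dox (0.539 and 0.699). Its part in the decline was not tested. The array near Daam1 had 2.90 RPM at 8 h, 1.10 at 16 h and 0.899 at day 4, against 0.441 in XEN cells. Core-poor clusters did not share a course. The one near Csrp2, with 50 matches, was Late, with 0.456 RPM at 8 h, 4.43 at day 4 and 9.55 for XEN cells. The cluster in the Cylc2 exon, which was Transient, had 1.53, 0.210 and 0.269 RPM at the same points. Those 1.45 kb upstream of Zfp768, with 27 matches and 4 cores, and in an intron of Capn2, with 20 matches and 1 core, were Early&Constant, with 6.71, 3.74 and 3.45 and with 3.07, 2.56 and 4.89 RPM. One more, chr16:29845206-29846421, 219.5 kb upstream of Hes1 and with 28 matches and 7 cores, had 7.26, 13.7 and 26.1 RPM.

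**Figure D4:**
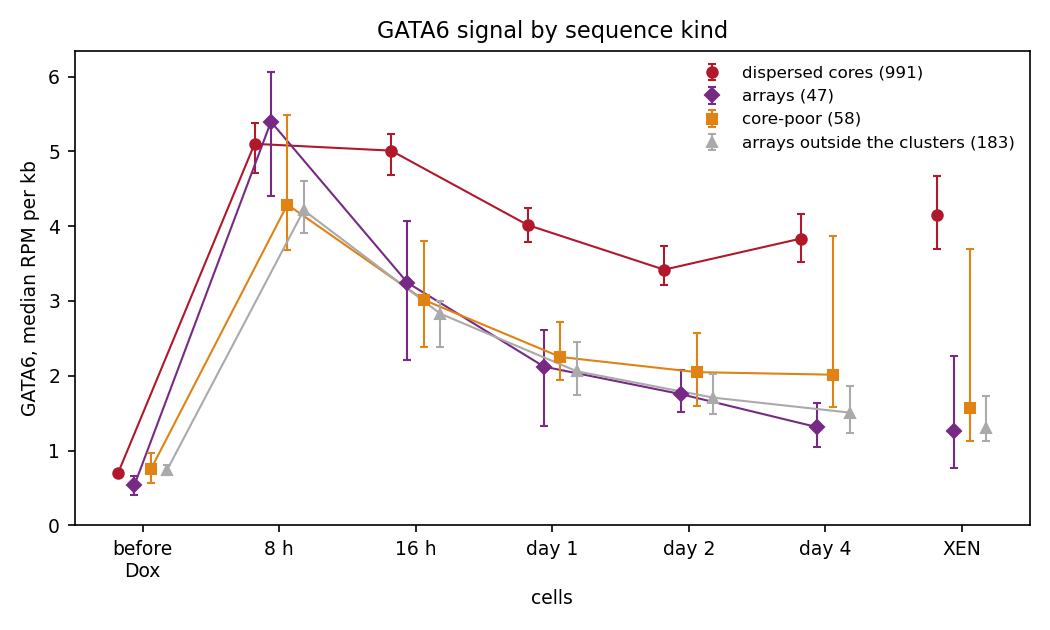
Median GATA6 signal in RPM per kb, with its 95% interval over regions, before Dox, during Dox and in XEN cells, for dispersed (991), array (47) and core-poor (58) clusters and for arrays outside the clusters (183). All kinds lie between 4.21 and 5.40 at 8 h, but at day 4 the dispersed clusters have 3.83 and both groups of arrays 1.31 and 1.51.

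SOX17, a PrE factor downstream of GATA6, was higher at the clusters from day 1 on. Its medians were 1.21 RPM before Dox, 1.17 and 1.32 at 8 h and 16 h, and 2.57, 2.78 and 2.94 on days 1, 2 and 4, and XEN cells had 2.25. From before Dox to day 4, 584 clusters (53.3%) were higher by 2-fold or more, against 44.8% of all regions. The rule left out only high SOX17 and OCT:SOX motifs, and lower-scoring ones remained. The SOX17 motif class was low or none in 554 clusters (50.5%), against 57.4% of all regions. For OCT:SOX these shares were 75.1% and 79.7%. The authors' class of SOX17 binding held 65.3% of clusters and 44.5% of all regions, but 66.5% of the wide regions with 1 or 2 matches. Per kb the day 4 medians were 2.64 at clusters, 2.21 in all regions and 3.27 at the wide regions. Arrays had 0.724 RPM per kb before Dox and 0.664 at day 4, and 11 of 47 were higher by 2-fold.

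OCT4, SOX2 and ESRRB, pluripotency transcription factors (PTFs), were already present at part of the clusters. The authors called PTF binding before differentiation in 34.8% of clusters and binding gained during it, called ectopic, in 29.6%, against 20.8% and 16.6% of all regions. At the wide regions with 1 or 2 matches these shares were 47.5% and 26.5%. The median OCT4 signal at clusters was 1.69 RPM before Dox, 1.86 and 1.75 at 8 h and 16 h, and 2.96, 2.68 and 2.02 on days 1, 2 and 4, while XEN cells had 0.933. From before Dox to day 2, 270 clusters (24.6%) were higher by 2-fold or more and 23 (2.10%) lower, where all regions had 14.6% and 4.86%. From day 2 to day 4, 238 (21.7%) were lower, against 17.5%. Per kb, OCT4 before Dox was 1.49 RPM at clusters and 2.25 at the wide regions, and at 750 to 999 bp it was 2.15 with no match, 1.90 with 1 or 2, 1.40 with 5 or 6 and 1.19 with 7 or 8. SOX2 had a cluster median of 2.01 RPM before Dox, 2.77 at 16 h and 2.33 at day 2, and 127 clusters (11.6%) were higher and 49 (4.47%) lower at day 2 than before Dox, against 6.01% and 6.7% of all regions. ESRRB went from 1.28 RPM before Dox to 0.846 at day 4, with 358 clusters (32.7%) lower by 2-fold or more, against 25.2% of all regions.

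**Figure D5:**
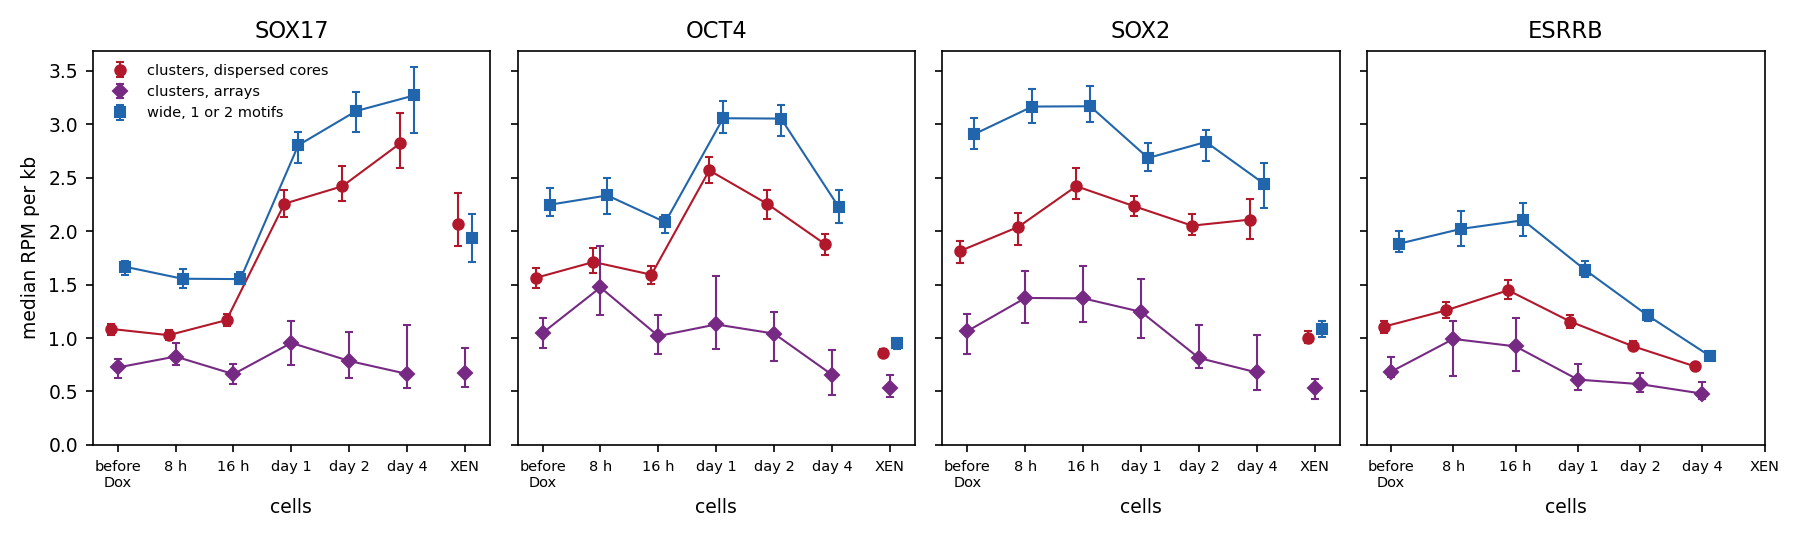
Median SOX17, OCT4, SOX2 and ESRRB signal in RPM per kb, with 95% intervals over regions, at dispersed clusters, arrays and wide regions with 1 or 2 GATA6 matches, by time of Dox and in XEN cells (not ESRRB). Dispersed clusters gain SOX17 and OCT4 at day 1, below the level of the wide regions, and arrays have 0.664 RPM per kb of SOX17 at day 4.

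The clusters with the largest OCT4 gains to day 2 that are named here were closed, Early&Constant and in the ectopic and SOX17 classes. The ectopic class rests on PTF binding gained during differentiation, so it is not separate from their choice by OCT4 gain. At chr4:116094015-116094683, in an intron of Lrrc41 and Rad54l, OCT4 went from 0.715 RPM before Dox to 7.60 at day 2 and 7.41 at day 4. At chr4:144492075-144492961, between genes, it went from 0.799 to 6.74 and 13.1. GATA6 was low there at 8 h, with 0.695 and 0.928 RPM, and had 4.73 and 5.04 at day 1 and 6.43 and 9.94 at day 4. SOX17 stood at 4.14 and 15.2 RPM at day 4.

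After Oct4 siRNA, GATA6 at the clusters differed little in the middle and much at single regions. The median was 7.42 RPM with control and 7.02 with Oct4 siRNA at day 2, a median log2 change of -0.11 (interval -0.14 to -0.08), with -0.0037 for all regions. Of the clusters, 52 (4.74%) were higher by 2-fold or more and 54 (4.93%) lower, where all regions had 6.83% and 4.37%, so neither share stood far from the background. None of the 47 arrays was higher. By class, the medians with control and Oct4 siRNA were 11.8 and 10.6 RPM for Early&Constant, 2.95 and 4.86 for Late and 2.65 and 1.94 for Transient clusters. All regions of these classes differed in the same directions, with 5.33 and 5.07, 1.07 and 1.62, and 1.13 and 0.860 RPM. SOX17 went from 2.57 to 4.17 RPM, and 232 clusters (21.2%) were higher and 0 lower by 2-fold, against 19.6% and 0.38% of all regions. These shares, too, were near the background, where 8321 regions were higher and 161 lower, so the rise was not particular to the clusters. The largest GATA6 loss among clusters with at least 1 RPM was at chr10:15825485-15826978, more than 1 Mb from a gene start, where 6.41 RPM with control siRNA stood against 1.41 with Oct4 siRNA. It was followed by chr12:16135654-16137261, upstream of Trib2 (10.4 and 3.02 RPM), and chr2:178614527-178615349 (13.8 and 4.18 RPM). All 3 carried OCT4 at day 2, at 4.45, 7.51 and 6.36 RPM. The largest gain was at chr11:84121014-84122159 in an intron of Tada2a, with 4.42 and 18.9 RPM, where SOX17 had 7.69 and 28.2. Next were chr6:115257764-115258762 in an intron of Syn2 (2.46 and 9.64 RPM) and chr1:9945803-9946605, 16.4 kb from the start of Tcf24 (1.97 and 7.67 RPM), both Late. In the time course, the 3 clusters with the largest losses had 1.12, 0.997 and 1.94 RPM of GATA6 at day 4, and the 3 with the largest gains 17.3, 6.07 and 3.86.

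A list of 36 genes of the PrE, its receptors and basement membrane and of pluripotency was searched for clusters within 100 kb of the start. It had 360 regions, of which 15 were clusters, at 10 of the genes. Of all 42403 regions, 1096 were clusters, and whether the listed genes differ from this background was not tested. Among PrE regulators, the cluster in an intron of Gata4, chr14:63230600-63233072, held 13 matches, with a best match that scored 15.0, and the cluster of Sox17 at chr1:4473107-4475478, 19.1 kb from the start, held 9. Their best matches are printed on the strand of the motif with the core in capitals.
Gata4, chr14:63231357-63231369 (plus strand): cgcaGATAagaaa
Sox17, chr1:4474678-4474690 (minus strand): aggaGATAagcag
GATA6 in the Gata4 intron was 17.8 RPM at 8 h, 27.1 at 16 h and 38.2 at day 4, and XEN cells had 54.1, while SOX17 went from 2.96 RPM before Dox to 36.9 at day 4. The Sox17 cluster had 7.74 RPM at 8 h and 25.9 at day 4, with 36.3 in XEN cells. Both clusters were closed in ES cells, Early&Constant and higher by 2-fold or more at day 4 than at 8 h.

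Of the receptor genes, only Lrp2, which encodes the endocytic receptor megalin, had a cluster, in an intron. It was core-poor and Late, with 14 matches and 4 cores, with 0.471 RPM at 8 h, 3.68 at day 4 and 4.65 for XEN cells. Of the listed basement membrane genes, Lama1 and Lamc1, both laminin chains, had clusters, and Lama5, whose cluster is given above, was not on the list. The one 11.6 kb upstream of Lama1, chr17:67684408-67686583, had 3.16 RPM at 8 h, 15.7 at day 1 and 35.0 at day 4, and 41.3 in XEN cells. In introns of Lamc1, a dispersed cluster had 35.6, 17.2 and 13.6 RPM at 8 h, at day 4 and in XEN cells, and an array 2.08, 3.16 and 3.21. The first was past 2-fold from 8 h to day 4 and the second was not.

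Clusters at pluripotency genes were 9 in number, at Tbx3, Esrrb, Klf4, Klf5 and Nr5a2, which encode transcription factors of the naive state. The Tbx3 cluster shown above had the highest GATA6 value of all clusters at 8 h, 57.5 RPM, and then 62.6 at 16 h, 44.6 and 36.1 on days 1 and 4, and 30.6 in XEN cells. At 4404 bp it was also the widest. Its neighbour chr5:119579174-119581740, 90.5 kb upstream of Tbx3, had 52.4, 28.6 and 33.6 RPM at 8 h, day 4 and in XEN cells. In an intron of Esrrb, chr12:86479960-86481406 held 18 matches and 14 cores and had 25.9 RPM at 8 h and 18.9 at day 4, against 10.6 in XEN cells. Its best match, with the core in capitals, is this.
Esrrb, chr12:86480775-86480787 (plus strand): ggaaGATAagagc
At Klf5 the 3 clusters had 4.03 and 3.69, 5.35 and 1.95, and 7.29 and 2.90 RPM at 8 h and day 4, so 2 of them were lower by 2-fold or more. The cluster of Klf4 had 5.15 and 0.984 RPM. At Nr5a2 the one within 1 kb of the start had 3.83 RPM at 8 h and 4.75 at day 4, and the one farther upstream 10.1 and 3.07. None of the 26 other listed genes had a cluster, which says nothing of GATA6 regions with fewer matches there.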

How the data were processed

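ChIP-seq of GATA6, SOX17, OCT4, SOX2 and ESRRB and input chromatin made up 96 libraries in 47 conditions, of which 45 have a column of the table the authors deposited. Input chromatin of the siRNA cells has none and was not analysed here. As described by the authors, reads were trimmed with cutadapt, aligned to mm10 with Bowtie2, filtered on mapping quality and deduplicated with unique molecular identifiers. GATA6 regions were called with MACS2. The authors counted reads per region with bamsignals and deposited them as RPM with replicates merged, together with motif scores and motif numbers from FIMO and their own classes of each region. The table also holds a column with the outcome of the authors' DESeq2 test of Oct4 siRNA, which was not used, and 14 columns of accessibility and histone mark signal of other samples, likewise not used.

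Members were taken with at least 7 GATA6 matches and neither the SOX17 nor the OCT:SOX motif class high. The members, gene lists and comparisons were chosen with earlier results of these data known, and the sequence kinds after the sequences had been read. Medians and shares were computed in Python 3.11.15 with pandas 2.3.3, NumPy 2.4.6 and SciPy 1.17.1, with exact 95% intervals over regions, and plotted with matplotlib 3.10.9. Signal was also divided by region length (end minus start). Cores were read from GRCm38 within each region and in 201 bases centred on the summit. The median and share functions were tested on simulated data. In 4 columns, GATA6 before Dox among them, the values are whole multiples of 1 step, and read counts were worked out for nearly all regions. Whether these counts include an added read is not known. With 1 merged column per condition no count test between conditions was possible. In most other columns 2 steps were found, which matches a mean of 2 libraries. GATA6 at day 4 has 3 labelled libraries and 2 steps.

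Regions were named by rule: the 5 with most matches and the 5 with most per kb, the 3 highest of each GATA6 class (at day 4, or at 8 h for Transient), the 3 largest losses and gains of GATA6 after Oct4 siRNA among members with at least 1 RPM, the 3 largest OCT4 gains to day 2, and members whose nearest start, within 100 kb, was that of a listed gene. Of these, 2 regions are not reported here. Alternatives changed the motif minimum, the motif classes, the scale, the pseudocount, the weighting by width and the chromosomes included.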

Additional observations from a re-analysis of the deposited data

How the results depend on the processing

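Of the values recomputed for the clusters, 48 moved by less than their interval over regions and 27 by more. No paired analysis was possible because the columns merge replicates and carry no replicate numbers, and for the same reason no replicate could be left out. Leaving out each chromosome in turn gave Early&Constant shares of 66.1% to 67.4% and closed shares of 69.6% to 71.2%, and ratios to all regions of 3.52 to 3.71 at 8 h and 3.07 to 3.25 at day 4. The median log2 changes were then -0.52 to -0.45 for GATA6 from 8 h to day 4, -0.12 to -0.10 for GATA6 with Oct4 siRNA, 1.08 to 1.14 for SOX17 and 0.44 to 0.46 for OCT4. With at least 6 matches the Early&Constant share was 61.7% and the ratios 2.94 and 2.67. With at least 10, the 8 h ratio was 4.90, the closed share 66.7%, and the changes -0.92 (8 h to day 4), -0.15 (Oct4 siRNA), 0.86 (SOX17) and 0.31 (OCT4). With low or absent SOX17 and OCT:SOX matches only, which left 436 regions, the Early&Constant share was 60.6% and the ratios were 2.84 and 2.10. The SOX17 and OCT4 changes were then 0.88 and 0.38. Other regions weighted to the clusters' deciles of width, which are no recomputed values of the clusters, had 53.2% Early&Constant, 48.6% closed and -0.079 with Oct4 siRNA. Their other values were within the clusters' intervals. GATA6 from 8 h to day 4 had -0.49 in both, SOX17 1.04 against 1.11 for the clusters and OCT4 0.41 against 0.45. The weighted day 4 ratio was 2.95, against 3.14. The ratios at 8 h and day 4 were 1.54 and 1.33 per kb, 4.11 and 3.76 with input subtracted, and 2.91 and 2.72 with means. A pseudocount 10 times larger gave -0.079 (Oct4 siRNA), 0.59 (SOX17) and 0.24 (OCT4), and one 10 times smaller 1.23 (SOX17). Clusters at or above the median of all regions had 1.57 for SOX17 and 0.55 for OCT4. With dispersed clusters only, an alternative chosen after seeing the data, the day 4 ratio was 3.67. Division by width and the weighting address the clusters' length but do not take it out fully. Regions with 1 or 2 matches still had 2.28 RPM per kb of GATA6 at 8 h under 500 bp and 5.80 at 1500 to 1999 bp. The top decile of width held 624 clusters and was weighted as a whole. The cause of these differences was not tested. Depth limits the values before Dox most, where 1 read is worth 0.163 RPM.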

Other observations

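A match to the motif of ESRRB, an orphan nuclear receptor of pluripotent cells, was present in 58.7% of the clusters and 36.3% of all regions, which differ in width (medians 1183 and 524 bp). The ESRRB signal per kb before Dox was the same in both, with medians of 1.07 and 1.08 RPM per kb, and 1.88 at wide regions with 1 or 2 GATA6 matches. At those wide regions 51.8% were lower by 2-fold or more at day 4, against 32.7% of clusters. SOX2 differed likewise, with 1.76 RPM per kb before Dox at clusters and 2.91 at wide regions, and the medians at 16 h were 2.35 and 3.17.

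With more matches the clusters did not go further in every respect. Those with 7 or 8, 9 to 11 and 12 to 50 matches had Early&Constant shares of 64.8%, 72.0% and 66.3%. Their median log2 changes of GATA6 from 8 h to day 4 were -0.28, -0.87 and -0.94, and 38.2%, 47.1% and 47.5% of them were lower by 2-fold or more, against 35.1% of all regions.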
